A study of Mus musculus with 39 samples.

Results

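The aldehyde, alcohol and retinoid dehydrogenases of mouse liver were followed across sucrose gradients as 6 gene families: the alcohol dehydrogenases (Adh), aldehyde dehydrogenases (Aldh), aldo-keto reductases (Akr), short-chain dehydrogenases and reductases (Dhrs), retinol dehydrogenases (Rdh) and carbonyl reductases (Cbr). Members were the genes whose symbol begins with 1 of these stems followed by a digit. Of the 14386 genes in either table of expression values, 56 were members, and of the 13230 genes found in both, 55 were. The exception, Adh6-ps1, was listed for gradient 2 alone. By what is known of each enzyme, 24 of the 55 were placed in the cytosol, 8 in mitochondria and 11 in the endoplasmic reticulum (ER). The other 12 are peroxisomal, bound to other membranes, found in more than 1 compartment or of uncertain place. By family there were 4 Adh, 17 Aldh, 14 Akr, 7 Dhrs, 10 Rdh and 3 Cbr genes.

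All libraries came from the livers of wild-type FVB female mice, with no treatment. The tissue was broken with beads without detergent, nuclei were removed, and the lysate was spun through sucrose, so that particles sorted by how fast they sediment and the fractions ran from light (low numbers) to dense (high numbers). RNA was sequenced from 17 fractions of gradient 1 (4 to 19 and 21) and 22 fractions of gradient 2 (3 to 24). The 2 gradients are the replicates; neighboring fractions of a gradient are not. Levels are in TPM, the share of a library's transcripts that a gene holds after scaling for transcript length, so a rise across the gradient is a rise relative to the other RNAs of the fraction and not in the amount of RNA.

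Alcohol dehydrogenases turn alcohols such as ethanol and retinol into aldehydes or ketones, and aldehyde dehydrogenases turn aldehydes into acids, with acetaldehyde handled mainly in mitochondria. Aldo-keto and carbonyl reductases run the other way and reduce sugars, steroids and reactive carbonyls with NADPH. Retinol dehydrogenases are mostly anchored in the ER membrane and convert retinol and retinal into each other, the step before retinoic acid is made. The RNAs of proteins that enter the ER are translated on ER-bound ribosomes, whereas those of cytosolic enzymes are read by free ribosomes, and most mitochondrial enzymes carry a positively charged start that directs them to the organelle.

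The starts of the coding sequences are shown because they carry the signals that place the proteins, and because the members differed in them. For each member the protein start was translated from the GENCODE M21 transcript (genome build mm10, strain C57BL/6J, whereas the mice were FVB), and the mean Kyte-Doolittle hydropathy, a scale on which positive values are hydrophobic, was taken over every window of 19 residues in the first 45. The first 45 codons follow, 5′ to 3′, with the most hydrophobic window of 19 codons in capitals; its mean hydropathy was 0.48 in Adh1, 1.04 in Dhrs1, 1.44 in Rdh7 and 1.56 in Rdh16.
Adh1: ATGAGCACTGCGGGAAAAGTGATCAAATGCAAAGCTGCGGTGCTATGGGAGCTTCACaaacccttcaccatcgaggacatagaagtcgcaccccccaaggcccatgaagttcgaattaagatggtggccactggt
Dhrs1: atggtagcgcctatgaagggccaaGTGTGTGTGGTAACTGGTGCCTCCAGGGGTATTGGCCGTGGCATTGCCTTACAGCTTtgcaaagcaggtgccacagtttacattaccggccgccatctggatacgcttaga
Rdh7: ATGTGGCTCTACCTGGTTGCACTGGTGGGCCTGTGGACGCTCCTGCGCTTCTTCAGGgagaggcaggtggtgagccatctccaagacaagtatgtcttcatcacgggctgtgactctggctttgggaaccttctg
Rdh16: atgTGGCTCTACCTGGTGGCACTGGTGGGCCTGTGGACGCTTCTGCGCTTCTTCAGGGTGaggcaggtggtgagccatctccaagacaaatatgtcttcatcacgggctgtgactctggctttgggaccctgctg
Aldh3a2, the ER fatty aldehyde dehydrogenase, is anchored at its other end: its best window scored −0.16 in the first 45 residues and 2.53 in the last 45. Its last codons, through the stop codon and with that window in capitals, read:
Aldh3a2 end: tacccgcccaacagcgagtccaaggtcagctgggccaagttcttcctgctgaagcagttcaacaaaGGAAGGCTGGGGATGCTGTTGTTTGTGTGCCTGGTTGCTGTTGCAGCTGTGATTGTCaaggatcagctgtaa
Aldh2, the mitochondrial acetaldehyde dehydrogenase, had a net charge of 5 and 0 acidic residues in its first 30. The median net charge there was 3.5 over the mitochondrial, 0 over the cytosolic and 2 over the ER members tested. Single members crossed these groups, with 6 in Aldh3a2 of the ER and 1 in Rdh13 of mitochondria. The first 30 codons of Aldh2 are given with the codons for arginine and lysine in capitals:
Aldh2 start: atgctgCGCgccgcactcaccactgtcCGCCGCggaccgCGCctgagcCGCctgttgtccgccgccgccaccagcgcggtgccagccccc

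To ask where along the gradient the RNAs of each group lay, each gradient was cut into a light zone (fractions 4 to 7), a middle zone (10 to 13) and a dense zone (16 to 19), whose libraries were averaged on the scale log2(TPM + 1), and the zones were compared with limma over all 11702 genes whose mean was 1 TPM or more. A change on this scale understates that of low genes. Of the 55 members 53 were tested; Akr1b7 and Cbr3, with mean TPM near 1, were not. From the light to the dense zone 34 of the 53 rose, where 22.3% of all genes tested did, and 7 fell, where 39.2% of all genes did. Without the light zone of gradient 1 or of gradient 2, which left 1 value for that zone, fewer members fell, and fewer of all genes did. The median change was 1.34 over the members and −0.42 over all genes. In 30 members all 8 dense libraries stood above all 8 light libraries, which held for 17.0% of all genes, and in 4 all stood below, which held for 28.8%.

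Counted by the place of the protein, of the 22 cytosolic members tested 19 rose and 1 fell, with a median change of 2.05. Of the 8 mitochondrial members 6 rose and 0 fell, with a median of 1.16, or 1.87 over those with a mean of at least 10 TPM. Of the 11 ER members 3 rose and 3 fell (22.3% and 39.2% of all genes), with a median of −0.96, and with the gradient as a block 6 fell, where 49.7% of all genes did. The placing of Dhrs1 in the ER is less certain than that of the others, and without it, a choice made after the values were seen, 2 of 10 rose and 3 fell, with a median of −1.02. Of the other 12, 6 rose and 3 fell. The medians in gradients 1 and 2 were 2.20 and 1.899 for the cytosol, 1.15 and 1.17 for mitochondria, and −1.18 and −0.49 for the ER. Lists of 12 well-known proteins of each compartment, none of them members, gave medians of 2.42 (cytosol, 12 higher), 2.56 (mitochondria, 10 higher) and −1.91 (ER, 8 lower and 0 higher).

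**Figure D1:**
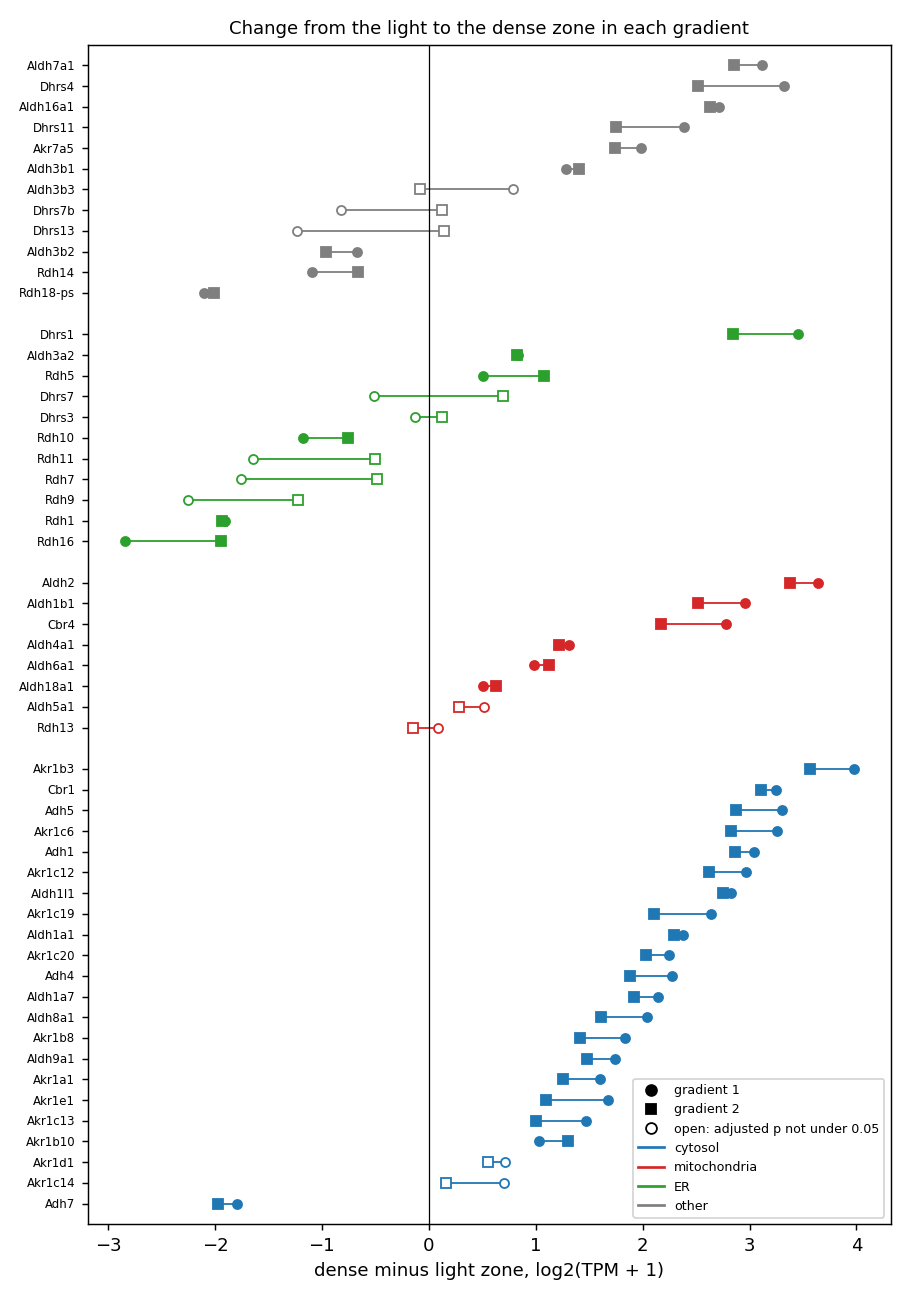
Difference between the dense and the light zone in log2(TPM + 1) for each of the 53 members tested, grouped by compartment; circles are gradient 1, squares gradient 2, and open symbols mark an adjusted p that was not under 0.05. All cytosolic members but Adh7 lie to the right of 0, and the ER members spread from −2.39 (Rdh16) to 3.15 (Dhrs1) in the mean of both gradients.

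Among the classical alcohol dehydrogenases of the cytosol, Adh1 was the most abundant member, with a mean of 3890 TPM. Adh1 oxidizes ethanol and retinol. Its lowest, median and highest TPM were 569, 974 and 1378 in the light zone and 6337, 7222 and 7922 in the dense zone. The libraries of both zones were fully apart, and Adh1 rose by 2.95 ± 0.19 (SE, 2 gradients) on the log2 scale (adjusted p = 0.000311), or 7.72-fold. Adh5, the glutathione-dependent formaldehyde dehydrogenase, rose by 3.09 ± 0.21 (adjusted p = 0.000329), and Adh4 by 2.08 ± 0.23 (adjusted p = 0.000913).

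Adh7, the class IV enzyme best known from the upper digestive tract, was the 1 cytosolic member that fell. It was low in liver, with a mean of 15.8 TPM. In the light zone it had 22.1, 25.8 and 35.7 TPM (lowest, median, highest) and in the dense zone 5.29, 6.32 and 7.73, again without overlap. The change was −1.88 ± 0.23 (adjusted p = 0.00128), and the gradients gave −1.79 and −1.97. Adh7 lies beside Adh1, Adh4 and Adh5 on chromosome 3 (chr3:138217760-138233382), and 68.9% of the aligned coding bases of Adh1 and Adh7 were identical.

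The 5 cytosolic aldehyde dehydrogenases rose toward the dense zone. Aldh1l1, which oxidizes 10-formyltetrahydrofolate, rose by 2.79 ± 0.28 (adjusted p = 0.000701). Aldh1a1, which turns retinal into retinoic acid, rose by 2.34 ± 0.37 (adjusted p = 0.00306), from a light-zone median of 344 TPM to a dense-zone median of 1618. Its neighbor on chromosome 19, Aldh1a7, rose by 2.03 ± 0.41 (adjusted p = 0.00755, and 0.0513 without the light zone of gradient 1). As 91.6% of their coding bases are identical, reads of Aldh1a1 and Aldh1a7 could be split between them, and their separate values are uncertain. Aldh8a1, of tryptophan breakdown, rose by 1.83 and Aldh9a1, of carnitine synthesis, by 1.61.

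Of the 13 aldo-keto reductases tested 11 rose and 0 fell, where 22.3% and 39.2% of all genes did. Akr1b3 (aldose reductase, which makes sorbitol from glucose) had the largest rise of any member. It went from 14.1, 17.4 and 18.5 TPM (lowest, median, highest) in the light zone to 163, 238 and 301 in the dense zone, a change of 3.77 ± 0.27 (adjusted p = 0.000335). Akr1c6, a hydroxysteroid dehydrogenase and the second most abundant member at 2190 TPM, rose by 3.04 ± 0.30 (adjusted p = 0.000652). Its relatives Akr1c12, Akr1c19, Akr1c20 and Akr1c13 rose by 2.79, 2.37, 2.14 and 1.24. Akr1a1 (aldehyde reductase), Akr1b8, Akr1e1 and Akr1b10 rose by 1.43, 1.63, 1.39 and 1.17. Some members of the Akr1c cluster on chromosome 13 are close copies, with 96.2% identical coding bases in Akr1c12 and Akr1c13 and 92.3% in Akr1c6 and Akr1c20, so reads may have been shared within these pairs, whereas Akr1c14 and Akr1c19 were 73.8% identical.

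The 2 aldo-keto reductases that did not pass the test, Akr1c14 and Akr1d1, act on steroids. Akr1c14, the 3-alpha-hydroxysteroid dehydrogenase, had 256, 484 and 743 TPM in the light zone and 536, 564 and 829 in the dense zone. These libraries overlapped, and the change was 0.43 ± 0.21 (adjusted p = 0.130). Its light zone was itself uneven, with a ratio of fraction 5 to fraction 7 of 2.30 and 2.38 in gradients 1 and 2. Akr1d1, the 5-beta-reductase of bile acid synthesis, changed by 0.63 ± 0.29 (adjusted p = 0.108, or 0.00268 with the gradient as a block). The carbonyl reductase Cbr1 rose by 3.18 ± 0.23 (adjusted p = 0.000335), from a median of 85.5 to 777 TPM.

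In mitochondria, Aldh2 stood out by level and by change. Aldh2 had 190, 377 and 489 TPM (lowest, median, highest) in the light zone and 2928, 3947 and 4705 in the dense zone, and rose by 3.51 ± 0.19 (adjusted p = 0.000306). It supplied 58.0% of the summed mean TPM of the mitochondrial members. Its close relative Aldh1b1 rose by 2.74 ± 0.18 (adjusted p = 0.000324), and Cbr4, a subunit of the enzyme for mitochondrial fatty acid synthesis, by 2.47 ± 0.26 (adjusted p = 0.000759). Aldh4a1, of proline breakdown, rose by 1.27 ± 0.19 (adjusted p = 0.00247) and Aldh6a1, of valine breakdown, by 1.06 ± 0.16 (adjusted p = 0.00235, and 0.0752 with zones of fractions 4 to 5 and 18 to 19). Aldh18a1, of proline synthesis, rose by 0.57 at a mean of only 1.17 TPM, and did not pass without any 1 of the 6 zone means (adjusted p from 0.057 to 0.193) or with other zone borders (0.0941).

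Aldh5a1, which removes succinic semialdehyde, had 36.7, 53.2 and 89.7 TPM in the light zone and 65.4, 75.0 and 84.2 in the dense zone. These values overlapped and the change of 0.40 ± 0.15 did not pass (adjusted p = 0.0627, or 0.0168 with the gradient as a block). Rdh13, the inner-membrane retinol dehydrogenase of mitochondria, changed by −0.03 ± 0.26 (adjusted p = 0.931). Rdh13 was also the mitochondrial member with the most hydrophobic start, at 1.82.

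**Figure D2:**
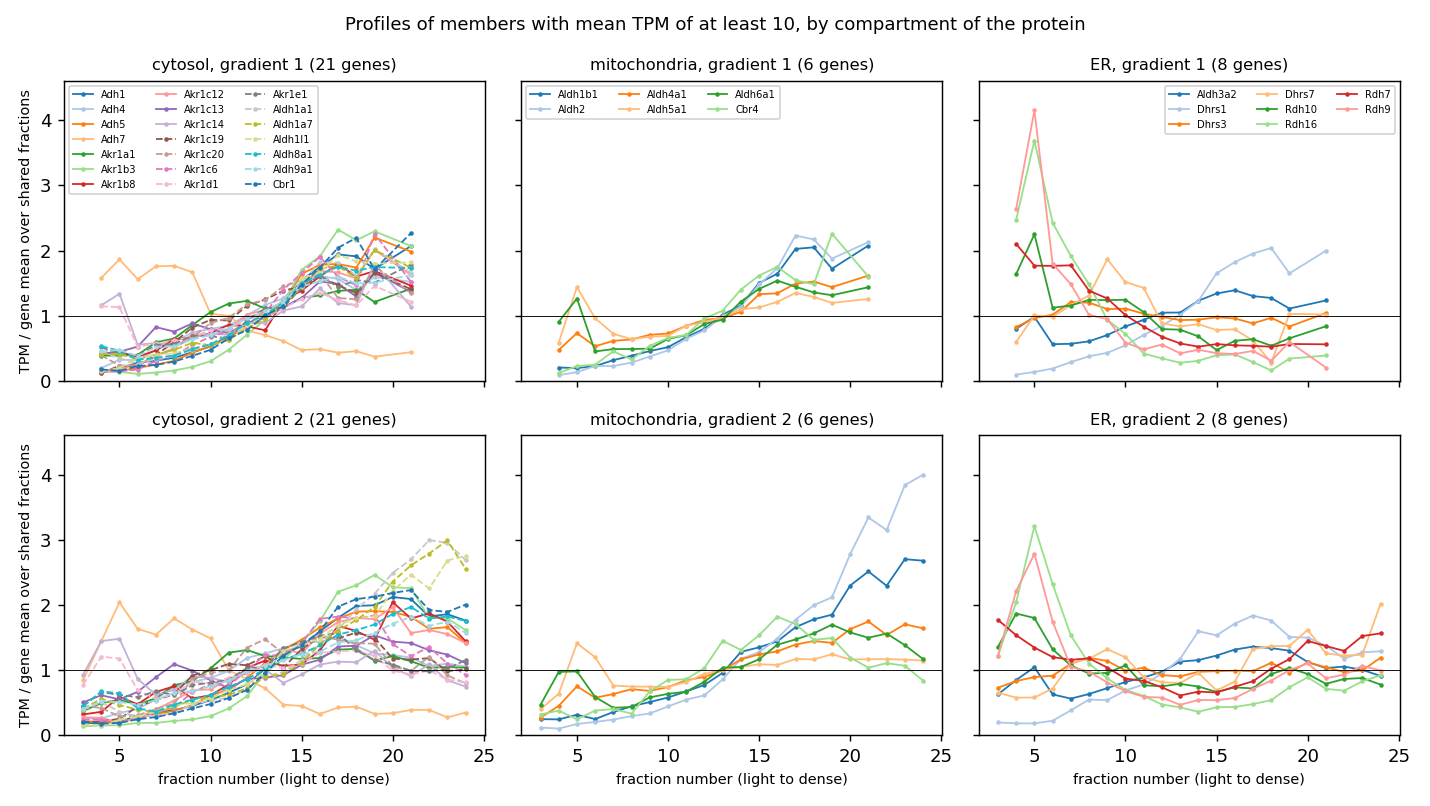
TPM in each fraction divided by the gene's mean over the 17 fractions measured in both gradients, for the cytosolic (21), mitochondrial (6) and ER (8) members with a mean of at least 10 TPM in both gradients; the upper row is gradient 1 and the lower row gradient 2. Most cytosolic and mitochondrial lines climb from left to right, Adh7 descends, and Rdh9 and Rdh16 peak at fraction 5 in both gradients.

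The ER members differed among themselves, and 5 of the 11 did not pass the test. The retinol dehydrogenases Rdh16, Rdh1, Rdh9 and Rdh7, which also act on 3-alpha-hydroxysteroids, are neighbors on chromosome 10. Rdh16 had 24.8, 39.4 and 70.8 TPM (lowest, median, highest) in the light zone and 2.11, 7.45 and 16.3 in the dense zone. There was no overlap, and Rdh16 fell by 2.39 ± 0.57 on the log2 scale (adjusted p = 0.0132), although not without the light zone of gradient 1 (adjusted p = 0.0573) or of gradient 2 (0.0937). Rdh1, at a mean of 3.68 TPM, fell by 1.92 ± 0.20 (adjusted p = 0.000822). Rdh9 changed by −1.74 ± 0.70 (adjusted p = 0.0751, or 0.00177 with the gradient as a block).

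Rdh7 was by far the most abundant of this cluster, with a mean of 264 TPM. It had 351, 398 and 472 TPM in the light zone and 118, 177 and 354 in the dense zone. The ranges overlapped slightly, since gradient 2 gave the higher dense-zone levels. The change of −1.12 ± 0.40 had an adjusted p of 0.0510, or 0.0179 with the gradient as a block. The gradients gave −1.75 and −0.49, and without the dense zone of gradient 2 the adjusted p was 0.00371 for Rdh7 and 0.0143 for Rdh9. The pseudogene Rdh18-ps in the same cluster fell by 2.06 ± 0.19 (adjusted p = 0.000585).

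These neighbors share sequence, which limits how far their values can be told apart. In mm10 they lie at chr10:127759721-127768297 (Rdh1), chr10:127776386-127792697 (Rdh9), chr10:127801152-127846565 (Rdh16) and chr10:127884028-127888817 (Rdh7, on the minus strand), and Rdh18-ps lies inside the span of Rdh16. Their coding bases were 96.3% identical in Rdh9 and Rdh16, 93.1% in Rdh1 and Rdh16, and 85.8% in Rdh7 and Rdh16. Reads of Rdh9, Rdh16, Rdh1 and Rdh18-ps may therefore have been exchanged, and of the 4 with a coding sequence Rdh7 was the least like the others.

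Rdh10 and Rdh11, encoded elsewhere, act on free retinol and retinal. Rdh10, which makes retinal for retinoic acid synthesis, had 14.1, 19.5 and 28.3 TPM in the light zone and 6.80, 9.10 and 14.3 in the dense zone. The zones met in their outermost libraries. Rdh10 fell by 0.96 ± 0.24 on the log2 scale (adjusted p = 0.0158), but not after quantile normalization (adjusted p = 0.0865) or without the light zone of gradient 1 (0.0754) or 2 (0.101). Rdh11, a retinal reductase with a mean of 13.7 TPM, changed by −1.07 ± 0.61 (adjusted p = 0.172, or 0.0156 with the gradient as a block and 0.0207 without the dense zone of gradient 2). Summed markers of stellate cells, which store retinoids, were also lower toward the dense end, at 43.7 and 55.0 TPM in the light zones of gradients 1 and 2 and 12.0 and 18.1 in the dense zones (5 of 6 listed markers in the tables). So were the sums of the hepatocyte list (50342 and 37310 in the light zones, 11426 and 22228 in the dense zones), the endothelial list (64.0 and 38.8, then 29.1 and 19.4) and the Kupffer cell list (72.2 and 74.6, then 33.8 and 37.5), whereas the bile duct list went from 4.03 and 3.42 to 5.43 and 4.05. Single hepatocyte markers did not all follow this sum, in which Alb had the highest mean (10503 and 8497 TPM in gradients 1 and 2). Cps1 rose by 2.12 ± 0.42 (adjusted p = 0.00658), Ttr did not pass (0.49, adjusted p = 0.367) and Cyp2e1 fell by 2.45. The part of any cell type in the Rdh values was not tested.

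Dhrs3 and Dhrs7, also ER proteins with hydrophobic starts, did not pass the test. Dhrs3, which reduces retinal back to retinol, was nearly level, with 147, 173 and 232 TPM in the light zone and 160, 175 and 197 in the dense zone. Its change was −0.00 ± 0.16 (adjusted p = 0.983). Dhrs7 changed by 0.09 ± 0.44 (adjusted p = 0.869), with −0.51 in gradient 1 and 0.70 in gradient 2, and passed without the dense zone of gradient 1 (adjusted p = 0.0363).

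The other ER members that passed rose. Dhrs1, whose place in the ER is less certain than that of the others, a short-chain dehydrogenase without the long hydrophobic start of the Rdh proteins (sequence above), had 30.8, 46.0 and 90.4 TPM in the light zone and 326, 456 and 636 in the dense zone. It rose by 3.15 ± 0.26 (adjusted p = 0.000423), a value inside the range of the cytosolic members. Aldh3a2, anchored by its far end, had 220, 326 and 554 TPM in the light zone and 506, 578 and 783 in the dense zone. Its rise of 0.83 ± 0.29 was close to the threshold (adjusted p = 0.0479) and was lost after quantile normalization (adjusted p = 0.259), with narrower zones (0.245) and without the light zone of gradient 1 (0.0751) or 2 (0.226) or the dense zone of gradient 1 (0.182). Rdh5, the 11-cis-retinol dehydrogenase of the visual cycle, rose by 0.80 ± 0.25 (adjusted p = 0.0368) at a mean of 6.17 TPM, but not without the light zone of gradient 1 (0.123) or 2 (0.16), the dense zone of gradient 2 (0.135) or the middle zone of gradient 1 (0.0577) or 2 (0.0571).

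**Figure D3:**
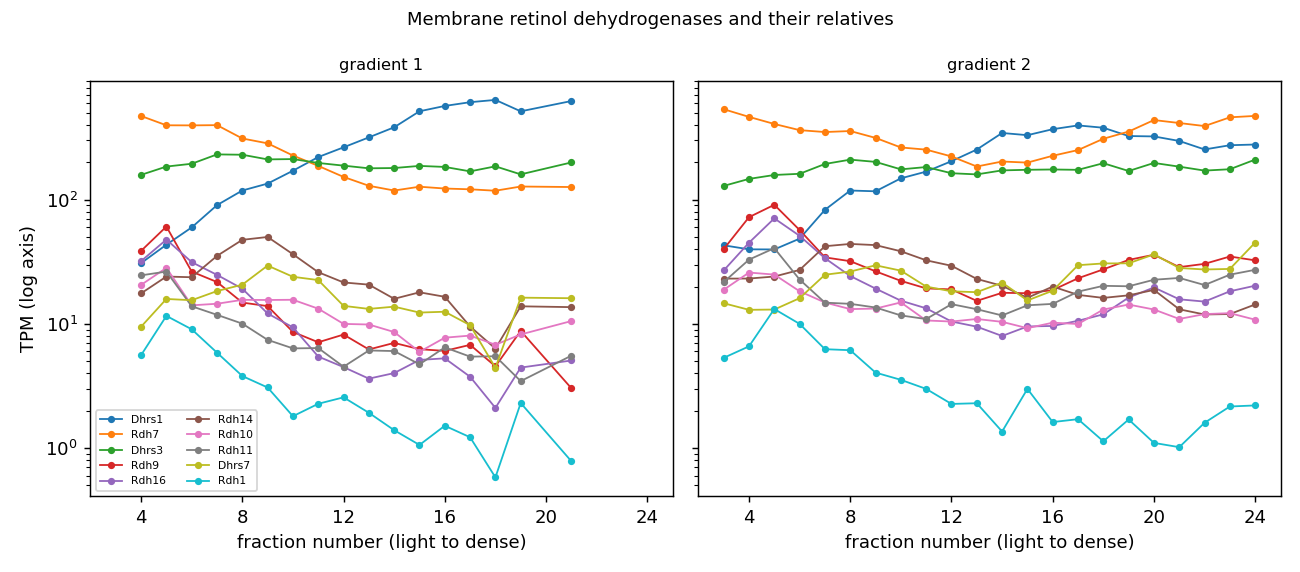
TPM (log axis) of 10 membrane dehydrogenases and relatives in each fraction of gradient 1 (left) and gradient 2 (right). Rdh7 has 472 and 464 TPM at fraction 4 of gradients 1 and 2, with 536 at fraction 3 of gradient 2. It ends at 127 in fraction 21 of gradient 1 but at 473 in fraction 24 of gradient 2. Dhrs1 rises to 636 TPM at fraction 18 of gradient 1 and 397 at fraction 17 of gradient 2, where it ends at 278 in fraction 24.

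Among the 12 members of other or mixed place, Aldh7a1 (lysine breakdown, in cytosol and mitochondria), Dhrs4 (a peroxisomal carbonyl reductase), Aldh16a1 and Dhrs11 rose by 2.99, 2.92, 2.67 and 2.07, with adjusted p between 0.000306 and 0.00187. Akr7a5, which reduces succinic semialdehyde and aflatoxin aldehyde, peaked in the middle of both gradients, at fraction 12. It rose by 2.67 ± 0.17 from the light to the middle zone (adjusted p = 0.00112) and fell by 0.81 ± 0.17 from the middle to the dense zone on the log2 scale (adjusted p = 0.0209). Rdh14, a membrane retinol dehydrogenase, peaked at fraction 9 of gradient 1 and fraction 8 of gradient 2. It fell by 0.88 ± 0.26 from the light to the dense zone (adjusted p = 0.0294), but not after quantile normalization (0.134), with other zone borders (0.0829) or without the dense zone of gradient 1 (0.0919) or the light zone of gradient 1 (0.0940) or 2 (0.152). Aldh3b1 rose by 1.34 and Aldh3b2 fell by 0.82, both with means under 3 TPM. Aldh3b1 did not pass without the dense zone of gradient 1 (adjusted p = 0.0979) or the light zone of gradient 2 (0.117), and Aldh3b2 not without the dense zone of gradient 2 (0.0697), after quantile normalization (0.431) or with other zone borders (0.337). Aldh3b3, Dhrs13 and Dhrs7b, with means of 1.59 to 5.60 TPM, did not pass the test.

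The middle zone lay between the others for most members. From the light to the middle zone 24 of the 53 rose (23.6% of all genes did) and 4 fell (23.6% of all genes). The 3 largest rises were those of Akr7a5 (2.67), Dhrs1 (2.03) and Akr1c6 (2.03), and the members that fell were Rdh16 (−2.17), Rdh18-ps (−1.73), Rdh1 (−1.42) and Adh7 (−0.81). Without the light zone of gradient 1 or 2, Rdh16 (adjusted p = 0.0926 and 0.149) and Adh7 (0.10 and 0.186) did not pass. With the gradient as a block 9 fell, where 34.5% of all genes did, among them Rdh9 (adjusted p = 0.00202), Rdh7 (0.0273) and Rdh10 (0.0160). By compartment, 15 of 22 cytosolic, 3 of 8 mitochondrial and 1 of 11 ER members (Dhrs1) rose. With the gradient as a block 30 rose, where 37.3% of all genes did, of them 19 cytosolic, 4 mitochondrial and 2 ER members (Dhrs1 and Aldh3a2, adjusted p = 0.0183 for the latter).

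From the middle to the dense zone 16 members rose, where only 4.81% of all genes did, and 3 fell, where 22.6% of all genes did. The rises were 10 cytosolic, 4 mitochondrial, 1 ER (Dhrs1) and 1 other member, led by Akr1b3 (1.99 ± 0.27, adjusted p = 0.00756), Aldh2 (1.56 ± 0.19, adjusted p = 0.00713) and Cbr1 (1.495 ± 0.23, adjusted p = 0.00892). The falls were those of Adh7 (−1.07), Rdh14 (−0.96) and Akr7a5 (−0.81), of which Adh7 (adjusted p = 0.124) and Rdh14 (0.230) did not pass after quantile normalization and none passed without the light zone of either gradient. With the gradient as a block 31 members rose, where 14.2% of all genes did. They were 18 cytosolic, 6 mitochondrial, 2 ER (Dhrs1 and Aldh3a2, adjusted p = 0.0164 for the latter) and 5 other members. In that fit 4 members fell, with Rdh1 (adjusted p = 0.0222) added, where 4618 of 11702 genes did. When the middle zone of gradient 1 or of gradient 2 was left out, 1 value remained for that zone, and no call of this contrast was kept. The changes were then 2.28 and 1.70 for Akr1b3, 1.72 and 1.405 for Aldh2, and 1.73 and 1.26 for Cbr1.

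The share of the whole library taken by the members made the size of these changes plain. Cytosolic members together held 0.446% ± 0.075 (SD, n = 2 gradients) of the TPM in the light zone, 1.10% ± 0.086 in the middle zone and 2.25% ± 0.13 in the dense zone. Mitochondrial members held 0.126% ± 0.0026, 0.259% ± 0.016 and 0.613% ± 0.037. ER members held 0.116% ± 0.0074, 0.113% ± 0.011 and 0.155% ± 0.013, a sum in which Aldh3a2 and Dhrs1 made up 37.1% and 20.5% of the mean level. The 7 ER members of the Rdh family alone held 0.0556% ± 0.0024 in the light zone, 0.0254% ± 0.0059 in the middle zone and 0.0259% ± 0.015 in the dense zone, the last with values of 0.0154% and 0.0364% in gradients 1 and 2.

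**Figure D4:**
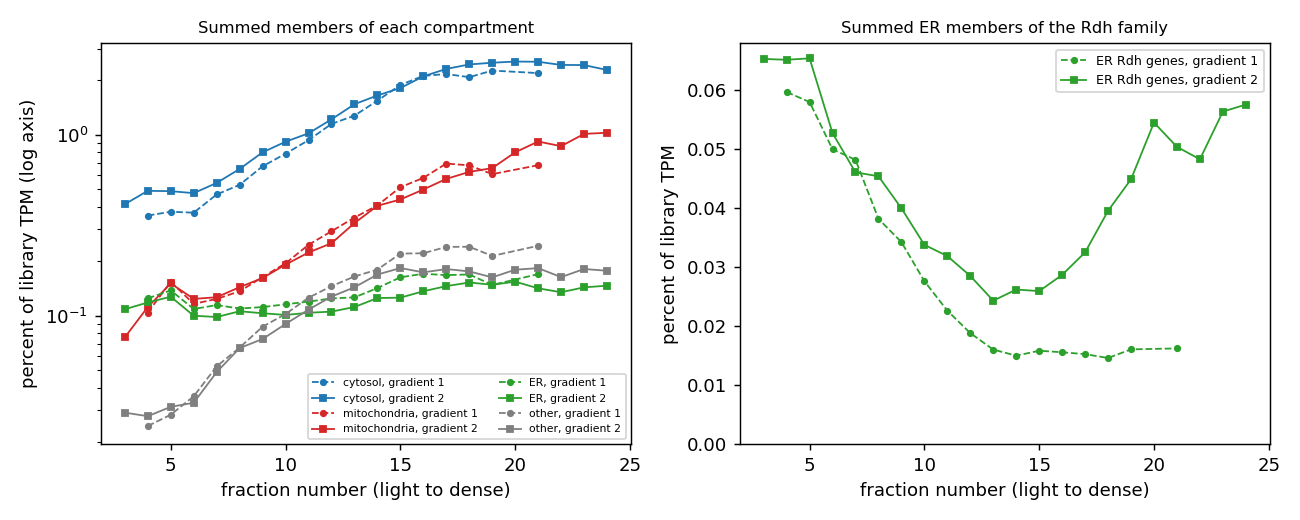
Percent of the TPM of each library held by the members of each compartment (left, log axis) and by the 7 ER members of the Rdh family (right), by fraction, with gradient 1 dashed and gradient 2 solid. The Rdh sum declines in both gradients to about fraction 13 and then stays near 0.015% in gradient 1 while it returns to 0.0575% at fraction 24 of gradient 2.

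Centers of sedimentation, the TPM-weighted mean fraction number over the 17 shared fractions, gave the same order. The medians in gradients 1 and 2 were 14.5 and 14.2 for cytosolic, 13.7 and 13.7 for mitochondrial and 10.3 and 11.6 for ER members, beside 11.3 and 11.3 for all genes tested. By the mean of both gradients the lightest members were Rdh18-ps (8.1 and 8.1), Rdh16 (8.0 and 9.2) and Rdh1 (8.6 and 8.7), although Rdh9 (8.3 and 10.1) was lighter than Rdh1 in gradient 1, and the densest were Akr1b3 (16.1 and 16.1) and Aldh2 (15.7 and 16.2). Across the shared fractions, the profiles of a gene in the 2 gradients had a median Pearson's R of 0.96 for cytosolic and 0.85 for ER members, and 0.90 for all genes tested, given as a description since neighboring fractions are alike. Among the ER members R was lowest in Dhrs7 (0.22).

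The bottom of the gradient, fractions 22 to 24, was measured in gradient 2 alone and has no replicate. Among the 41 members with a mean of at least 10 TPM in both gradients, 16 had a higher mean there than in the dense zone, as did 28.7% of the 6729 genes at that level. Of the 13 aldehyde dehydrogenases 10 were higher, with a median ratio of 1.21, and of the 12 aldo-keto reductases 1 was, with a median of 0.78. Aldh2 had a ratio of 1.99, from 3633 to 7215 TPM, and Aldh1a1 one of 1.61. Akr1c6 stood at 0.62 of its dense-zone level and Adh1 at 0.98. Of the 5 retinol dehydrogenases at this level 3 were higher, Rdh7, Rdh16 and Rdh9, with ratios of 1.55, 1.48 and 1.28, and Rdh10 and Rdh14 had 0.98 and 0.73. The coding sequences of the Aldh members had a median of 1560 bases, those of the Akr members 972 and those of the Rdh members, whose median ratio was 1.28, 954. Over the 41 members the log2 ratio and log2 coding length had a Spearman's rho of 0.48, as over all genes, both across genes of the same libraries.

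The members were also compared by the hydropathy of the protein start. Of the 10 members with the most hydrophobic windows (1.68 to 2.66), 8 had a change below 0 from the light to the dense zone, and the median change was −0.45. Only 2 of the 10, Rdh10 and Rdh14, passed the test as lower, where 64.3% of all genes with a window of at least 1.68 did, and Rdh13 (−0.03) and Dhrs3 (−0.00) were close to 0. Rdh5 rose, by 0.80. These were Dhrs7, Rdh10, Rdh14, Rdh11, Rdh9, Dhrs7b, Dhrs13, Rdh5, Rdh13 and Dhrs3. The 4 members whose dense libraries all stood below the light ones, Rdh16, Rdh1, Adh7 and Rdh18-ps (which has no coding sequence), are not among them. Of the other 42 with a coding sequence 5 had a change below 0, and the median was 1.84. Among all genes with a window of at least 1.68, 92.2% had a change below 0, with a median of −1.296, against 54.3% and −0.15 among genes below it. Dhrs11 (1.47) and Akr1b10 (1.48) had windows like those of Rdh7 and Rdh1 (both 1.44) but rose by 2.07 and 1.17. Across 52 members hydropathy and change had a Spearman's rho of −0.46, and across 10766 genes −0.18, values that are descriptions over genes of the same libraries.

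**Figure D5:**
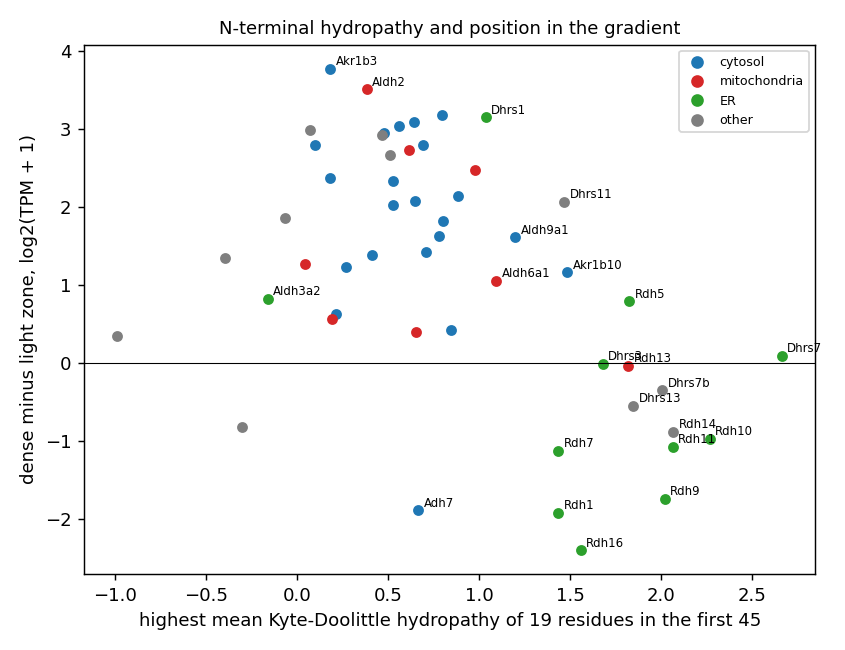
Dense minus light zone in log2(TPM + 1) against the highest mean hydropathy of 19 residues within the first 45, for 52 members colored by compartment. Members at the right lie around or below 0, apart from Rdh5 at 0.80, whereas most of those with values under 1.2 lie above 0.

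Partner genes of the same pathways, from lists chosen as background, gave values beside those of the members. Of 8 tested genes of ethanol and aldehyde handling 5 rose toward the dense zone (Cat, Acss3, Esd, Hagh and Glo1) (22.3% of all genes did) and 1 fell (39.2% of all genes), Cyp2e1, the ER cytochrome that oxidizes ethanol (−2.45 ± 0.62, adjusted p = 0.0162). Cat, the peroxisomal catalase, rose by 2.17 ± 0.19 (adjusted p = 0.000479). Of these 8 genes 7 rose and 1 fell with the gradient as a block, where 30.7% and 49.7% of all genes did. Of 15 tested genes of retinoid handling 2 rose (Bco2 by 2.19 and Bco1 by 1.18) and 3 fell, or 7 with the gradient as a block, shares below or near those of all genes. The falls were in Lrat, the ER enzyme that esterifies retinol (−2.72 ± 0.26, adjusted p = 0.000620), Cyp26b1 (−1.87) and the nuclear receptor Rxra (−1.57). Of 29 other short-chain dehydrogenases 13 rose and 4 fell, where 22.3% and 39.2% of all genes did. With the gradient as a block 18 rose and 7 fell, where 30.7% and 49.7% of all genes did. The changes were led by the peroxisomal Pecr (3.75) and Hsd17b4 (3.20) at the one end and by Hsd17b12 (−1.68) and Hsd17b11 (−1.43), proteins of ER and lipid droplet membranes, at the other.

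Over the 39 libraries the TPM summed to between 998099 and 999202, and 10532 to 12558 genes had more than 1 TPM. The files hold no read counts, so the depth of each library is unknown, and only the difference between the 2 gradients shows how precise a level is. Markers of hepatocytes, all 8 listed present, summed to between 9315 and 50342 TPM in the zones of either gradient, whereas the lists for endothelial, Kupffer, stellate and bile duct cells summed to between 3.42 and 74.6.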

How the data were processed

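RNA was measured in 39 libraries, 17 of gradient 1 and 22 of gradient 2. The authors made stranded libraries from 500 ng of ribosomal RNA-depleted RNA, converted base calls with bcl2fastq 2.16.0.10, pseudo-aligned reads with Kallisto (version not given in the sources used here) to an mm10 RefSeq index, and the deposited TPM values are per gene, for genes above 1 TPM in some fraction. How transcripts were summed to genes is not stated. TPM gives shares, so depth is unknown and reads of close paralogs may be split arbitrarily.

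Zone means of log2(TPM + 1) per gradient (pseudocount 1) were compared in 1 fit of 3 zones with limma 3.58.1 (R 4.3.3, trend in eBayes), adjusted by Benjamini-Hochberg over genes with a mean of at least 1 TPM over the shared fractions, at an adjusted p of 0.05. The study's methods state no test between fractions. Each gradient was loaded with 1 homogenate, which pairs its zones; deviations of the gradients correlated across genes with r = 0.665 (light and middle), 0.541 (light and dense) and 0.799 (middle and dense). The fit with this block is an alternative, beside another pseudocount, filter, scaling and zone borders and leaving out each zone mean. Members, compartments and lists were chosen with earlier results of these data known, and 1 gene of a partner list is not reported here. Genes were named if their mean TPM was at least 10 in both gradients, or if they were among the 3 largest called changes of a contrast and direction; Rdh11, Rdh5, Rdh13, Rdh18-ps, Rdh1, Akr1b10, Akr1b7, Cbr3, Adh6-ps1, Aldh18a1, Aldh3b1, Aldh3b2, Aldh3b3, Dhrs13 and Dhrs7b were added, where no rule named them, to account for every member, after their values were seen. Sequence features were computed from GENCODE M21, in which 52 of the 53 members tested have a coding sequence, with Biopython 1.88; its transcripts may differ from those indexed by the authors.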

Additional observations from a re-analysis of the deposited data

How the results depend on the processing

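None of the 53 members tested changed direction past the threshold under any alternative in which it was fitted. The count of members that rose from the light to the dense zone stayed between 30 and 36, and of those that rose from the light to the middle zone between 19 and 30. Members that fell from the light to the dense zone were 10 in place of 7 with the replicate block. Among genes with a mean of at least 10 TPM they were 4, where 2504 of 7209 genes fell. Rdh1, Rdh18-ps and Aldh3b2 lay under that filter and were not fitted, and the other 4 kept their calls. Those that fell from the light to the middle zone were 2 in place of 4 under the filter of 10 TPM, 9 with the replicate block and 2 to 8 when a zone mean was left out. From the middle to the dense zone the replicate block gave 31 rises in place of 16, and leaving out a zone mean gave 0 to 14 rises and 0 to 1 falls in place of 3. Quantile normalization gave 1 fall in that contrast. It also moved the median of all genes from −0.42 to −0.04 between the light and dense zones and their calls from 2609 higher and 4583 lower to 3608 and 3490, while 34 members rose and 5 fell. Over the 53 members and 3 contrasts, 32 calls were gained with the replicate block and 0 lost. All genes gained calls with the block as well. Between the light and dense zones 3590 were higher and 5815 lower, in place of 2609 and 4583. Between the light and middle zones they were 4369 and 4042, in place of 2759 and 2766. From the middle to the dense zone they were 1663 and 4618, in place of 563 and 2643.

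The median of the cytosolic members between the light and middle zones was 1.14, and 1.42 with a pseudocount of 0.1, 0.94 with no filter, 1.296 at 10 TPM, 0.88 without the 50 most abundant genes and 0.97 after quantile normalization. The mitochondrial median between the light and dense zones, 1.16, became 1.24, 1.87 at 10 TPM, 1.14 without the 50 genes, 1.07 after quantile normalization and 0.96 with other borders, the first with the pseudocount of 0.1. Between the light and middle zones it went from 0.44 to 0.69 (pseudocount 0.1) and 1.02 (10 TPM), and between the middle and dense zones from 0.78 to 0.88 (10 TPM) and 0.91 (quantile), with 0.66 and 0.80 in single gradients. The ER median between the light and middle zones, −0.68, became −0.81 without the 50 genes −1.10 with other borders and −0.86 without Dhrs1 (chosen after seeing the data), and between the middle and dense zones it was −0.20 and 0.37 in single gradients. With all 22 fractions of gradient 2 the median centers moved from 14.2 to 16.2 (cytosol), 13.7 to 15.8 (mitochondria) and 11.6 to 13.5 (ER), as the added fractions lie mostly at the dense end. The cause of the other shifts was not tested.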

Other observations

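Several members had higher levels in fraction 5 than in fraction 7 near the top of both gradients, which was noticed after the values were seen. The ratio of TPM in fraction 5 to that in fraction 7 was 2.59 and 2.32 (gradients 1 and 2) for Aldh6a1, 2.30 and 2.38 for Akr1c14, 1.97 and 2.11 for Akr1d1, 1.99 and 1.85 for Aldh5a1, 1.72 and 1.85 for Aldh3a2, 2.80 and 2.65 for Rdh9, and 1.94 and 1.68 for Rdh10. It was 0.59 and 0.63 for Adh1, 0.48 and 0.48 for Dhrs1 and 0.30 and 0.29 for Akr7a5. Of the 17 members with a mean of at least 10 TPM and an annotated transcript over 2500 bases, 10 had a higher value in fraction 5 in both gradients, and of the 24 with shorter transcripts 3 did. Among all genes at that level the shares were 50.1% and 22.0%. The annotated length is that of 1 GENCODE transcript a gene and not of the RNA in these livers.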
